A study of Mus musculus with 24 samples.

Results

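The transcripts described are those of 6 appetite neuropeptide genes, *Agrp*, *Npy*, *Pomc*, *Cartpt*, *Hcrt* and *Pmch*, which were chosen by name, with earlier results of these data known, and by no rule on measured values. All 6 were among the 13998 genes of the SAGE-Seq table. In SAGE-Seq, tags from near the 3′ end of transcripts are sequenced and summed by gene. It was applied to hypothalamus RNA of 24 adult male F2 mice, with 1 library per mouse. The mice were *b6/b6* (n = 12) or *cast/cast* (n = 12) across a subcongenic segment of Chr 17, and all were *b6/b6* in the rest of the genome, where b6 stands for C57BL/6J and cast for CAST/EiJ. All mice had chosen between a carbohydrate/protein (C/P) and a fat/protein (F/P) diet in a 10 d test and were returned to chow. They were killed about 48 h after both diets were offered again, following a short fast.

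The authors took *cast/cast* mice with high and *b6/b6* mice with low carbohydrate intake, so genotype and intake cannot be told apart between the groups. The segment carries many genes at which the groups differ, and none of the 6 genes lies on Chr 17. The comparisons ask whether the level of each transcript differed between the genotypes, and whether it followed the total, C/P or F/P kcal that a mouse ate within its genotype. Values are normalized counts, which are tag hits divided by the size factor of the library. In a bulk tissue, fewer cells of a type and less RNA per cell cannot be told apart.

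Neurons of the arcuate nucleus that make agouti-related peptide (*Agrp*) and neuropeptide Y (*Npy*) promote feeding. Neighbouring arcuate neurons that make proopiomelanocortin (*Pomc*), the precursor of alpha-melanocyte-stimulating hormone, restrain it, and AgRP opposes that hormone at melanocortin receptors. Neurons of the lateral hypothalamus make orexin (*Hcrt*), known for wakefulness and food seeking, or melanin-concentrating hormone (*Pmch*), known for promoting feeding. CART (*Cartpt*) is made in several hypothalamic nuclei, including by neurons that also make POMC and by neurons that also make melanin-concentrating hormone.

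The SAGE kit that the labels name is taken here, from general knowledge of the kit and not from the labels, to anchor each tag at the sequence CATG nearest the 3′ end of a transcript. The tags that this rule gives for the 6 genes are shown because they are what could be counted. They were read from GENCODE transcripts matched to RefSeq accessions on GRCm38, with the CATG in capitals and up to 27 bases in all. Which tags were counted for each gene is not given in the sources used here.
*Agrp* (chr8:105567464-105567490, minus strand): CATGctgactgcaatgttgctgagttg
*Npy*, last site (chr6:49829495-49829507, plus strand): CATGcattcaaaa
*Npy*, site before it (chr6:49829418-49829444, plus strand): CATGccaccactaggctggactccgcc
*Pomc* (chr12:3960507-3960533, plus strand): CATGggcgagctgatgacctctagcct
*Cartpt* (chr13:99898501-99898527, minus strand): CATGtacaaattacacataataaagca
*Hcrt* (chr11:100761876-100761902, minus strand): CATGggccgccgcgcaggcgcagagct
*Pmch* (chr10:88092173-88092199, plus strand): CATGttggcaagtctgatacctgctgg

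The tags of *Agrp*, *Pomc*, *Cartpt*, *Hcrt* and *Pmch* were each found in the transcripts of 1 gene. The tag of *Hcrt* lay within the coding sequence, those of *Agrp* and *Pmch* ran from the coding sequence into the 3′ UTR (26 and 14 of 27 bases coding), and those of *Pomc* and *Cartpt* lay in the 3′ UTR. *Npy* was the exception. Its last CATG lay 13 bases from the transcript end, and that short sequence occurred in transcripts of 3 genes (*Bmi1*, *Gm5946* and *Npy*). The site before it, 90 bases from the end, gave a full tag found in *Npy* alone. A last site closer to the end than a full tag was found for 6.82% of 12050 genes, whose median of mean normalized counts was 109 against 180 for the other genes with a site. Since each transcript yields 1 tag at most, levels of different genes were compared without a correction for length, with this limit for *Npy*.

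*Pmch* had the highest level of the 6, with a mean of 8130 normalized counts over 24 mice (rank 159 of 13998 genes), followed by *Pomc* with 2401, *Agrp* with 1126, *Cartpt* with 1004, *Hcrt* with 837 and *Npy* with 57.0. *Npy* was the lowest of the 6 in every mouse. *Pmch* was higher than *Agrp*, *Cartpt*, *Hcrt* and *Npy* in all 24 mice, and higher than *Pomc* in 21. *Pomc* exceeded *Agrp* in 22 mice, *Cartpt* in 21 and *Hcrt* in 20. *Agrp*, *Cartpt* and *Hcrt* could not be ordered firmly, since *Agrp* exceeded *Cartpt* in 10 mice and *Hcrt* in 15, and *Cartpt* exceeded *Hcrt* in 19.

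Libraries held 7754202 to 13082873 tag hits. The fewest hits of any of the 6 neuropeptide genes in a mouse were 4, for *Npy*, against the 3 hits taken as the floor of detection, while some markers below were at or under that floor. The median Pearson correlation of a library with the others, over genes with a mean of at least 20 and on the log2 scale, was under 0.9 for 4 mice, *b6/b6* mice 6 (0.870) and 12 (0.835) and *cast/cast* mice 4 (0.894) and 6 (0.857). Mouse numbers are only names. Of the pituitary markers, *Gh*, *Cga* and *Fshb* were in the table and summed to between 0 and 471 normalized counts in *b6/b6* and between 0 and 283 in *cast/cast* mice. Of the blood markers, the 3 in the table summed to between 121 and 4999 in *b6/b6*, with the highest value in mouse 6, and between 105 and 782 in *cast/cast* mice.

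*Agrp* had a wider range in *cast/cast* than in *b6/b6* mice. In *b6/b6* mice its normalized count ran from 319 over a median of 767 to 1655, with a mean of 794 ± 373 (SD, n = 12). With *cast/cast* it ran from 15.1 over a median of 1208 to 3686, with a mean of 1458 ± 1223 (n = 12). Mice of *cast/cast* stood at both ends, 3 of them above every *b6/b6* mouse and 2 below. The 3 above were mice 1, 12 and 11 (3686, 3338 and 2943). They also had the highest *Npy* (82.9, 75.8 and 64.1) and the highest pituitary marker *Cga* (265, 118 and 148) of the *cast/cast* mice. Mouse 2 of *b6/b6*, with the highest *Agrp* of its genotype, had a *Cga* of 0. The part of pituitary RNA in the *Agrp* values was not tested. On the log2 scale the difference, *cast/cast* minus *b6/b6*, was 0.17 ± 0.61 (SE; 95% interval -1.08 to 1.42; limma P = 0.786, adjusted P = 0.949). Mouse 9 of *cast/cast*, with 16 tag hits for *Agrp*, weighed on this estimate, which was 0.68 (P = 0.112) without it. Tests on tag hits, which follow the mean, put the difference at 0.88 with edgeR (P = 0.0737) and DESeq2 (P = 0.0511).

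*Npy* was low in all but a pair of mice. In *b6/b6* mice it ran from 8.62 over a median of 29.6 to 392, with a mean of 75.8 ± 124, and in *cast/cast* mice from 4.72 over a median of 41.0 to 82.9, with a mean of 38.2 ± 27.0. Only *b6/b6* mice 6 and 12, with 392 and 278, exceeded all *cast/cast* mice, and these are the *b6/b6* libraries that stood apart from the rest. The log2 difference was -0.35 ± 0.58 (interval -1.53 to 0.83; P = 0.551, adjusted P = 0.874) and became 0.30 (P = 0.524) without those 2 mice. The direction of *Npy* therefore rested on them. The haemoglobin transcript *Hba-a1* also had its highest values in mice 6 and 12 (2615 and 771), and its part in the *Npy* values was not tested.

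*Pomc* had nearly the same mean in both genotypes. It ran from 521 over a median of 1857 to 5589 in *b6/b6* (mean 2443 ± 1716) and from 320 over a median of 2287 to 4527 in *cast/cast* mice (mean 2359 ± 1136). The ranges overlapped except for mouse 8 of *b6/b6* at the top and mouse 9 of *cast/cast* at the bottom. The log2 difference was 0.11 ± 0.41 (interval -0.74 to 0.96; P = 0.795, adjusted P = 0.952), and it was -0.05 with edgeR and with DESeq2. *Pomc* is also a major transcript of the pituitary. In mouse 8, with the highest *Pomc* of all, the pituitary markers *Gh*, *Cga* and *Fshb* were at 10.6, 0 and 0.816, and in mouse 12 of *b6/b6*, with the highest *Gh* (467), *Pomc* was 544. Among *cast/cast* mice *Cga* was highest in mice 1, 11 and 12 (265, 148 and 118), where *Pomc* was 3213, 3583 and 2875. Mouse 8 of *cast/cast*, with the highest *Pomc* of that genotype (4527), had a *Cga* of 1.91. The part of pituitary RNA in the *Pomc* values was not tested.

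*Cartpt* was the least variable of the 6 on the log2 scale when both genotypes were pooled. In *cast/cast* mice its SD on that scale was 0.87 (0.32 in *b6/b6*), and that of *Pmch* was lower (0.79). *Cartpt* ran from 661 over a median of 931 to 1415 in *b6/b6* (mean 933 ± 216) and from 302 over a median of 1187 to 2048 in *cast/cast* mice (mean 1075 ± 517). As for *Agrp*, *cast/cast* mice lay at both ends, with 3 above and 3 below all *b6/b6* mice. The log2 difference was 0.04 ± 0.25 (interval -0.48 to 0.55; P = 0.890, adjusted P = 0.978), and it turned to -0.06 when libraries were rescaled to the same total, a step that moved the median of all genes from -0.02 to -0.11.

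*Hcrt* ran from 44.2 over a median of 457 to 2704 in *b6/b6* (mean 678 ± 781) and from 20.2 over a median of 657 to 4102 in *cast/cast* mice (mean 995 ± 1061). A single *cast/cast* mouse lay above and another below all *b6/b6* mice. Its log2 difference, 0.60 ± 0.64 (interval -0.71 to 1.91; P = 0.359, adjusted P = 0.786), was the largest of the 6 on the log2 scale. It was 1.38 (P = 0.0146) without the 4 libraries that stood apart, with a ratio past 1.5 but a P above the 0.01 required of a call.

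*Pmch* ran from 3321 over a median of 7661 to 22154 in *b6/b6* (mean 8479 ± 5265) and from 2388 over a median of 8178 to 15021 in *cast/cast* mice (mean 7780 ± 3780). Again a single mouse of each genotype fell outside the range of the other, *b6/b6* mouse 12 above and *cast/cast* mouse 6 below. The log2 difference was -0.09 ± 0.30 (interval -0.71 to 0.53; P = 0.778, adjusted P = 0.945) and changed sign to 0.34 (P = 0.203) without the 4 libraries that stood apart.

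**Figure D1:**
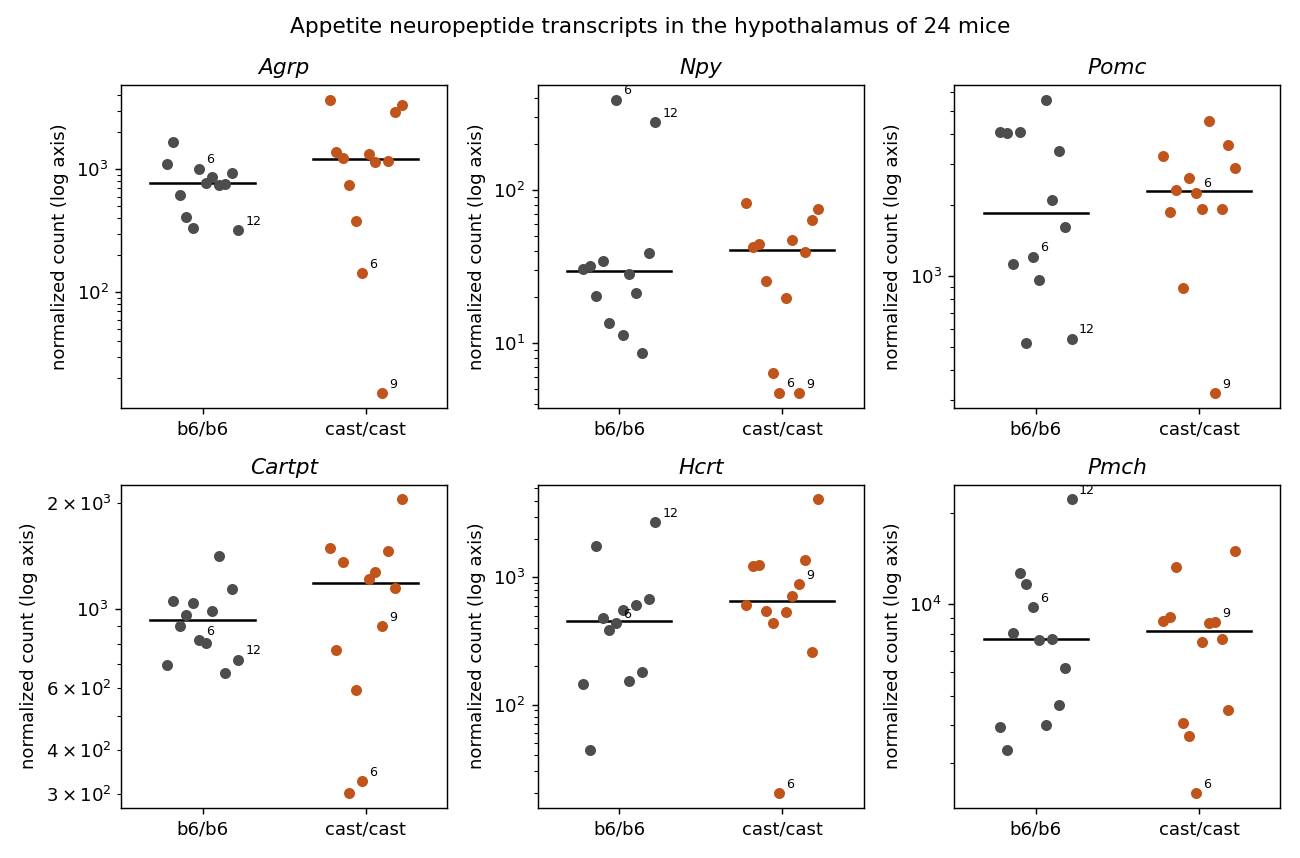
Normalized count (log axis) of each neuropeptide transcript in 12 *b6/b6* and 12 *cast/cast* mice, 1 point per mouse, with a line at the median; mice 6 and 12 of *b6/b6* and 6 and 9 of *cast/cast* are numbered. Ranges of the genotypes overlap for all 6 genes, and *cast/cast* mouse 9 has the lowest *Agrp*, *Npy* and *Pomc*.

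Some mice were low or high in several of the transcripts at the same time. Mouse 9 of *cast/cast* had the lowest *Agrp* (15.1), *Npy* (4.72) and *Pomc* (320) of all 24 mice, whereas its *Cartpt* (897), *Hcrt* (887) and *Pmch* (8726) lay inside the range of the other mice. Mouse 6 of *cast/cast* had the lowest *Hcrt* (20.2) and *Pmch* (2388), with low *Cartpt* (326), *Npy* (4.75) and *Agrp* (144) but a *Pomc* of 2255. Mouse 12 of *b6/b6* had the highest *Pmch* (22154) and, for its genotype, the highest *Hcrt* (2704) and the lowest *Agrp* (319).

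A gene was called where its unadjusted limma P did not exceed 0.01 and its mean differed by a ratio of 1.5 or more, and by this rule 208 of 13998 genes differed between the genotypes (1.49%). None of the 6 neuropeptide genes was called (0 at an unadjusted P of at most 0.05, against 8.13% of all genes), by limma or by edgeR or DESeq2. Nor was any called on P of at most 0.01 alone or on an adjusted P of at most 0.05, which 2.04% and 0.572% of all genes met. The intervals above leave room for differences in either direction of more than 1 on the log2 scale for *Agrp* and of 1.53 (lower) for *Npy* and 1.91 (higher) for *Hcrt*, and with the spread of these transcripts among mice such differences were not detectable. Median log2 difference was 0.07 over the 6 and -0.02 over all genes.

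**Figure D2:**
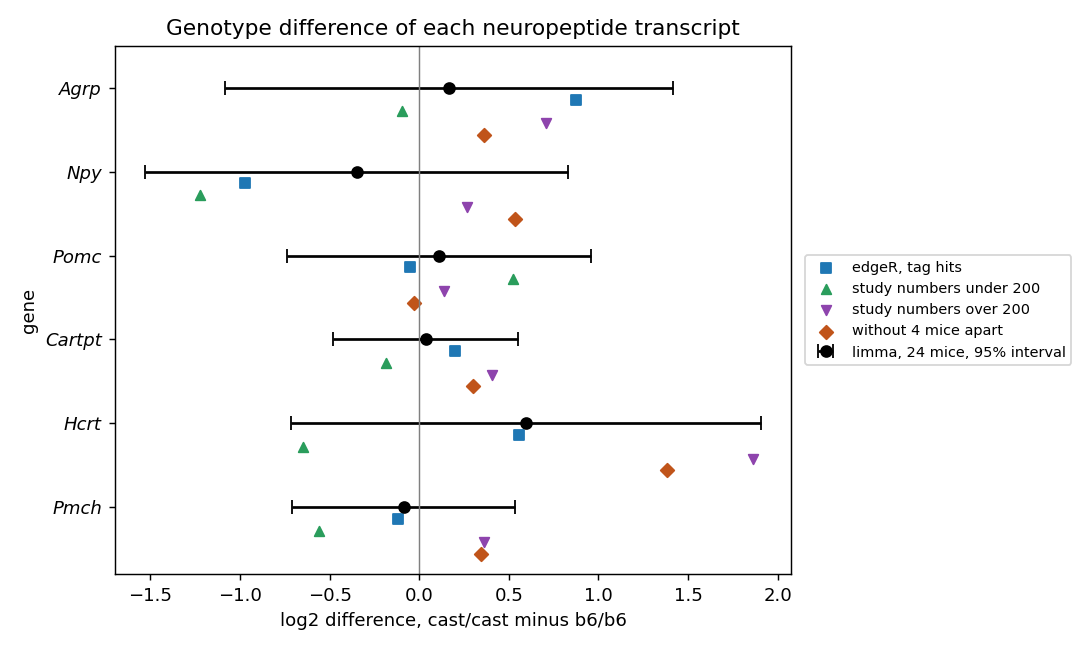
Log2 difference, *cast/cast* minus *b6/b6*, of each transcript from limma with its 95% interval (black), and the estimates from edgeR, from mice with study numbers under or over 200, and without the 4 libraries that stood apart. All 6 intervals include 0, and the estimates for each of the 6 genes lie on both sides of 0 depending on the mice included or, for *Pomc*, the tool.

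The spread among mice of a genotype was large for most of the 6. Within genotypes the SD on the log2 scale was 1.72 for *Hcrt*, 1.64 for *Agrp*, 1.53 for *Npy*, 1.11 for *Pomc*, 0.80 for *Pmch* and 0.66 for *Cartpt*. The 500 genes nearest in level to each had median SDs of 0.45 to 0.65, and the share of those genes with a smaller SD was 100% for *Agrp* and *Hcrt*, 98.4% for *Pomc*, 98.0% for *Npy*, 88.4% for *Pmch* and 78.8% for *Cartpt*. These are ranks within this table and no test.

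**Figure D3:**
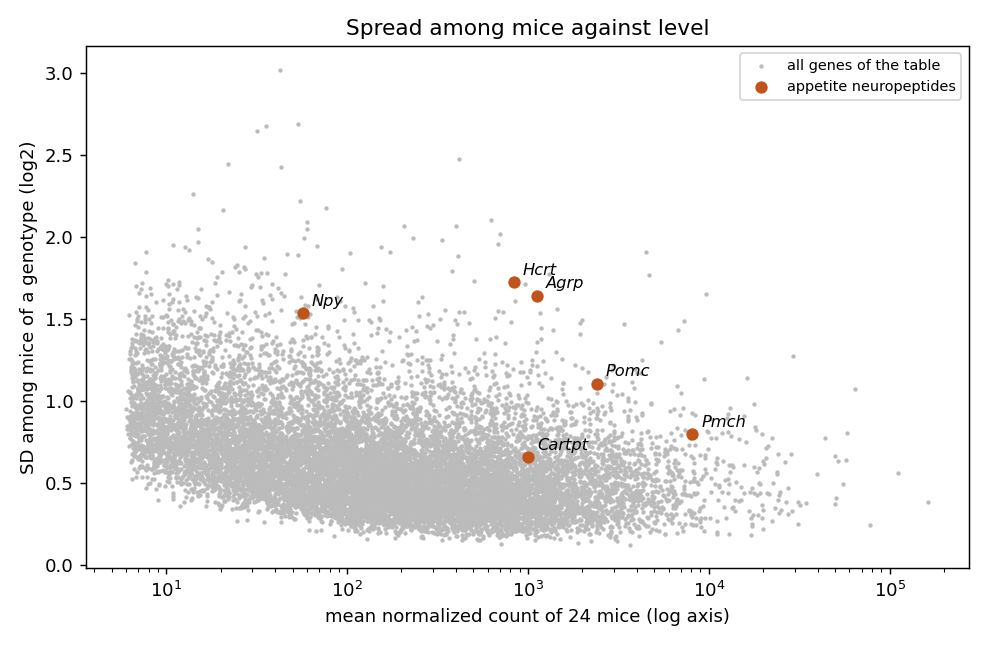
SD among mice of a genotype (log2, pooled over both genotypes) against the mean normalized count of 24 mice (log axis), with all 13998 genes in gray and the 6 neuropeptide genes in orange. *Hcrt*, *Agrp*, *Pomc* and *Npy* lie above nearly all genes of like level, and *Cartpt* lies within the main cloud.

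Whether the transcripts varied together was examined over the 15 pairs, as correlations of log2 values across 24 mice after the mean of each genotype was removed. The share of all genes related to a transcript at an adjusted P of at most 0.05 was 24.8% for *Cartpt*, 24.6% for *Pmch*, 22.1% for *Hcrt*, 15.7% for *Npy*, 0.143% for *Pomc* and 0 for *Agrp*, so a relation with *Cartpt*, *Pmch*, *Hcrt* or *Npy* was common in this table.

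*Hcrt* and *Pmch*, the transcripts of separate neurons of the lateral hypothalamus, varied together most closely. The Pearson r was 0.83 (permutation test, P = 1e-05, the smallest that 100000 resamples can give; Spearman's rho 0.75, P = 8e-05; limma adjusted P over all genes 0.00184 and 0.00034, depending on which was the response). It was 0.81 in *b6/b6* (permutation test, P = 0.00141, n = 12) and 0.86 in *cast/cast* mice (P = 8e-05, n = 12), and 0.78 without the 2 mice farthest from the median *Hcrt*. In *b6/b6* mice without mice 6 and 12 it was 0.73 (permutation test, P = 0.0153, n = 10). With each mouse left out it lay between 0.81 and 0.86, without the 4 libraries that stood apart it was 0.76, and with 2 principal components of the other genes as covariates it was 0.72. Among 13997 genes, *Pmch* ranked 1 by its correlation with *Hcrt*, and *Hcrt* ranked 2 with *Pmch*. The level of *Pmch* was nonetheless not a fixed multiple of *Hcrt*, the ratio running from 4.55 to 75.1 in *b6/b6* and from 3.66 to 118 in *cast/cast* mice.

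In the arcuate group, *Agrp* and *Pomc*, which act in opposition at melanocortin receptors, were positively related. Their r was 0.61 (permutation test, P = 0.00159; rho 0.46, P = 0.0125), with 0.58 in *b6/b6* (P = 0.0502) and 0.76 in *cast/cast* mice (P = 0.0144). This relation rested in part on *cast/cast* mouse 9, without which r was 0.37 over 23 mice and 0.32 in *cast/cast* mice (P = 0.337). The adjusted P over all genes was 0.888 with *Agrp* as the regressor and 0.158 with *Pomc*.

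*Agrp* and *Npy*, which are made by the same arcuate neurons, had an r of 0.54 (permutation test, P = 0.00214; rho 0.59, P = 0.00376). The limma adjusted P over all genes was 0.888 with *Agrp* as the regressor and 0.0295 with *Npy*. Among 13997 genes, *Npy* ranked 45 by its correlation with *Agrp*, whereas *Agrp* ranked 1058 with *Npy*. The correlation of *Agrp* and *Npy* differed between the genotypes. In *cast/cast* mice r was 0.89 (P = 2e-05) and 0.94 without mouse 9, whereas in *b6/b6* mice it was -0.06 (P = 0.856), or 0.32 (P = 0.361, n = 10) without mice 6 and 12. The difference between the genotypes of 0.95 had a P of 0.00357 when genotype labels were permuted, and it was 0.55 (P = 0.118) without the 4 libraries that stood apart. The normalized count of *Agrp* was higher than that of *Npy* by 30.3-fold (median) in *b6/b6* and 31.1-fold in *cast/cast* mice. The lowest ratios were 1.14 in *b6/b6* mouse 12 and 3.20 in *cast/cast* mouse 9. Because the last CATG of *Npy* leaves less than a full tag, these are ratios of counts and may not be ratios of transcript level.

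*Agrp* and *Pmch* had no detectable relation over all mice (r = 0.03, permutation test, P = 0.909), and yet strongly and negatively related in *b6/b6* mice (r = -0.85, P = 0.00051; -0.90 without mice 6 and 12). Among *cast/cast* mice r was 0.32 (P = 0.318), or 0.73 (P = 0.00979) without mouse 9. The difference of 1.16 between the genotypes had a P of 0.00777. *Hcrt* followed the same order, with an r with *Agrp* of -0.67 in *b6/b6* (P = 0.0152) and 0.33 in *cast/cast* mice (P = 0.242), but the difference did not pass the threshold (P = 0.0762).

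*Pomc* stood against the peptides of the lateral hypothalamus in *b6/b6* mice, with an r of -0.71 with *Hcrt* (permutation test, P = 0.00861) and -0.74 with *Pmch* (P = 0.00673). Without mice 6 and 12 both were -0.62 and had a P above 0.05 (0.0575 and 0.0583, n = 10). The same correlations in *cast/cast* mice were -0.08 and 0.03, and the differences had a P of 0.0276 and 0.0281. *Cartpt* followed *Pmch* in *cast/cast* mice (r = 0.82, P = 0.00144, or 0.66, P = 0.0370, n = 10, without mice 4 and 6) and not detectably in *b6/b6* mice (r = -0.05, P = 0.867; difference P = 0.0346), and over all mice its r of 0.52 (P = 0.0082) fell to 0.28 without *cast/cast* mice 4 and 6. Among 13997 genes, *Pmch* ranked 1777 by its correlation with *Cartpt*, and *Cartpt* ranked 1527 with *Pmch*. *Npy* and *Pmch* had an r of 0.52 (P = 0.0114), and the other pairs had P above 0.03. Of the 15 pairs, 13 had a positive r, 4 had a P of at most 0.01, and 2 differed between the genotypes at that threshold. These P were not adjusted over the pairs.

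**Figure D4:**
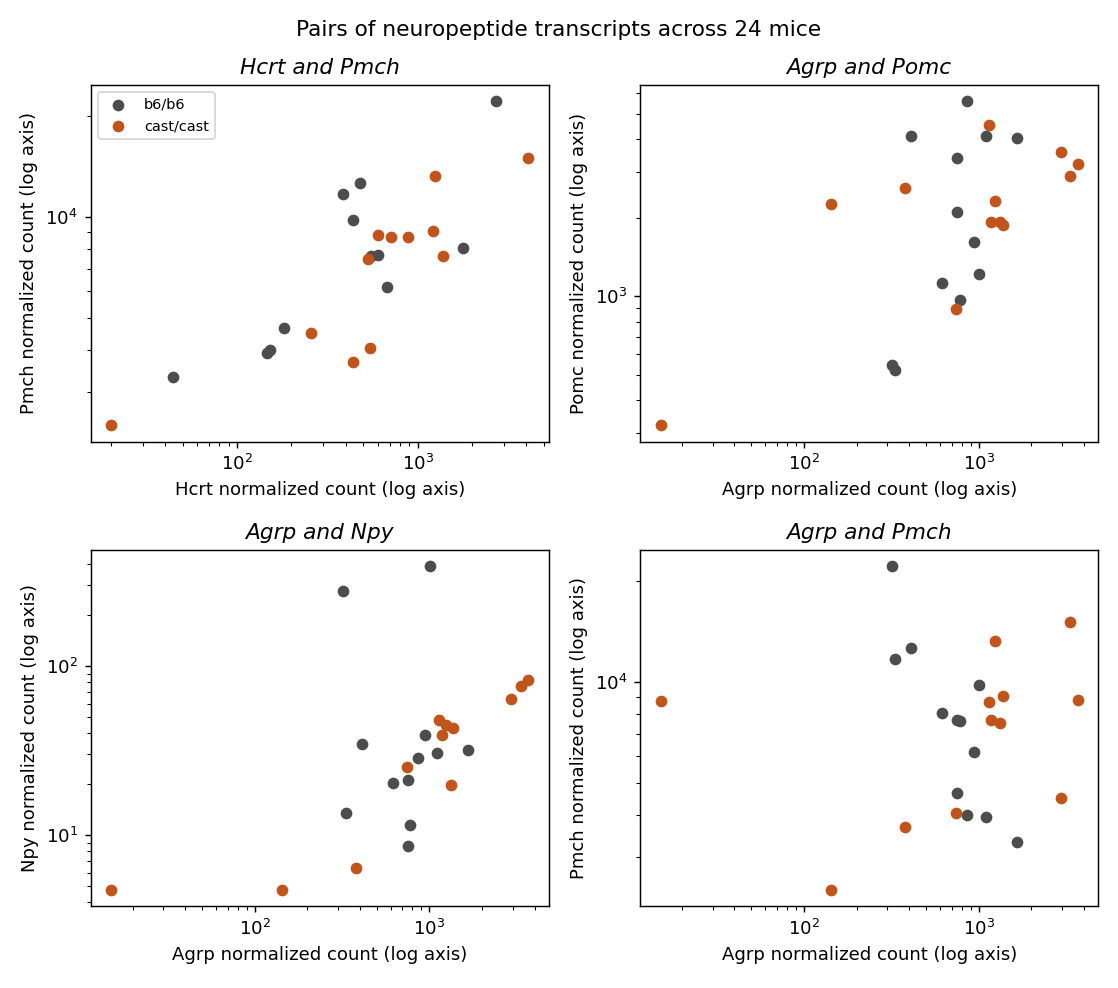
Normalized counts (log axes) of *Hcrt* and *Pmch*, *Agrp* and *Pomc*, *Agrp* and *Npy*, and *Agrp* and *Pmch* in each of 24 mice, with *b6/b6* in gray and *cast/cast* in orange. *Hcrt* and *Pmch* rise together in both genotypes, *Agrp* and *Npy* in *cast/cast* mice, and *Agrp* and *Pmch* run in opposite directions in *b6/b6* mice.

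The relation of each transcript to intake was tested within each genotype, which gave 36 relations of 6 genes to total, C/P and F/P kcal. Intake over 10 d ranged from 94.8 to 120.2 kcal in total, 27.4 to 41.0 kcal from C/P and 60.0 to 80.4 kcal from F/P in *b6/b6* mice. For *cast/cast* the ranges were 104.0 to 133.1, 77.8 to 106.6 and 0.6 to 49.8 kcal. Of the 36 relations 6 had a limma P of at most 0.05, 1 had a P of at most 0.01 and 0 had an adjusted P of at most 0.05, nor did any of the 13998 genes in any of these fits.

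All 6 transcripts had in *cast/cast* mice a positive slope on F/P and on total kcal and a negative slope on C/P kcal, 3, 2 and 0 of them with a P of at most 0.05. Among all genes 14.7%, 26.3% and 2.41% had such a P. The share of all genes with these signs was not determined, so the signs cannot be taken as particular to the 6 transcripts. C/P and F/P kcal add up to the total, so the 3 relations are not independent. The slope of *Pmch* on F/P kcal was 0.0367 ± 0.0110 log2 units per kcal (limma P = 0.00467, adjusted P = 0.329; 2.70% of all genes had a P of at most 0.01). *Pmch* was 3677 in the mouse that ate 0.6 kcal and 15021 in the mouse that ate 49.8 kcal of F/P. Across the 12 mice r was 0.69 (permutation test, P = 0.0123) and rho 0.73 (P = 0.00938), and without the 2 mice farthest from the median intake r was 0.63 (P = 0.052). Without *cast/cast* mice 4 and 6, the libraries that stood apart, the slope was 0.0337 (limma P = 0.000328). It was 0.0365 (P = 0.000137) without mouse 6 alone and 0.0349 (P = 0.0105) without mouse 4 alone. On total kcal the slope of *Pmch* was 0.0577 ± 0.0195 (P = 0.0101, adjusted P = 0.113), with an r of 0.64 (permutation test, P = 0.0248) and a rho of 0.80 (P = 0.00268). Without mice 4 and 5, the 2 farthest from the median total intake, this r was 0.48 (permutation test, P = 0.164).

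*Cartpt* also had a positive slope on total kcal in *cast/cast* mice, of 0.0617 ± 0.0217 log2 units per kcal (limma P = 0.0126, adjusted P = 0.119), with an r of 0.62 (permutation test, P = 0.0322). This relation rested on the mice with the lowest intake. Without mice 4 and 5, r was 0.26 (P = 0.470), and without mouse 4 alone the slope was 0.0418 (P = 0.135). On F/P kcal the slope of *Cartpt* was 0.0320 ± 0.0136 (P = 0.0340, adjusted P = 0.329; r = 0.55, permutation P = 0.0646) and that of *Npy* 0.0490 ± 0.0227 (P = 0.0485, adjusted P = 0.338; r = 0.51, permutation P = 0.0863). *Hcrt* followed the same direction, with a rho of 0.72 on F/P kcal (P = 0.0108) and -0.77 on C/P kcal (P = 0.00496), although its r were 0.40 (P = 0.188) and -0.34 (P = 0.280).

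*Agrp* and *Pomc* had no slope on the 3 intakes in *cast/cast* mice that passed the threshold (limma P from 0.150 to 0.830). On C/P kcal their values depended on mice 5 and 11, which ate most of it. Without these 2 mice r was -0.84 for *Agrp* (permutation test, P = 0.0110, n = 10), -0.71 for *Npy* (P = 0.0212) and -0.74 for *Pomc* (P = 0.0361). Mouse 9, with the lowest *Agrp*, *Npy* and *Pomc*, ate the most C/P kcal of the 10 that remain (95.8 kcal).

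Among *b6/b6* mice 0, 1 and 0 of the 6 slopes on total, C/P and F/P kcal had a P of at most 0.05, against 2.81%, 23.8% and 1.74% of all genes. *Npy* had the lowest P, with a slope of -0.238 ± 0.0924 log2 units per kcal of C/P (limma P = 0.0212, adjusted P = 0.144). Its r of -0.57 (permutation test, P = 0.0642) became -0.20 (P = 0.660) without mice 5 and 12 and -0.09 without mice 6 and 12, so the relation rested on the mice with the highest *Npy*. *Cartpt* and C/P kcal had an r of 0.57 (permutation test, P = 0.0521) and a rho of 0.60 (P = 0.0406), the opposite sign of that in *cast/cast* mice (-0.30 and -0.64). A test of the difference of the slopes found P of 0.149 for this case. Over 18 such tests the lowest P were 0.0331 for *Cartpt* and 0.0347 for *Pmch*, both on total kcal, and none was at most 0.01, against 5.19% of all genes on total, 9.93% on C/P and 0.45% on F/P kcal.

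**Figure D5:**
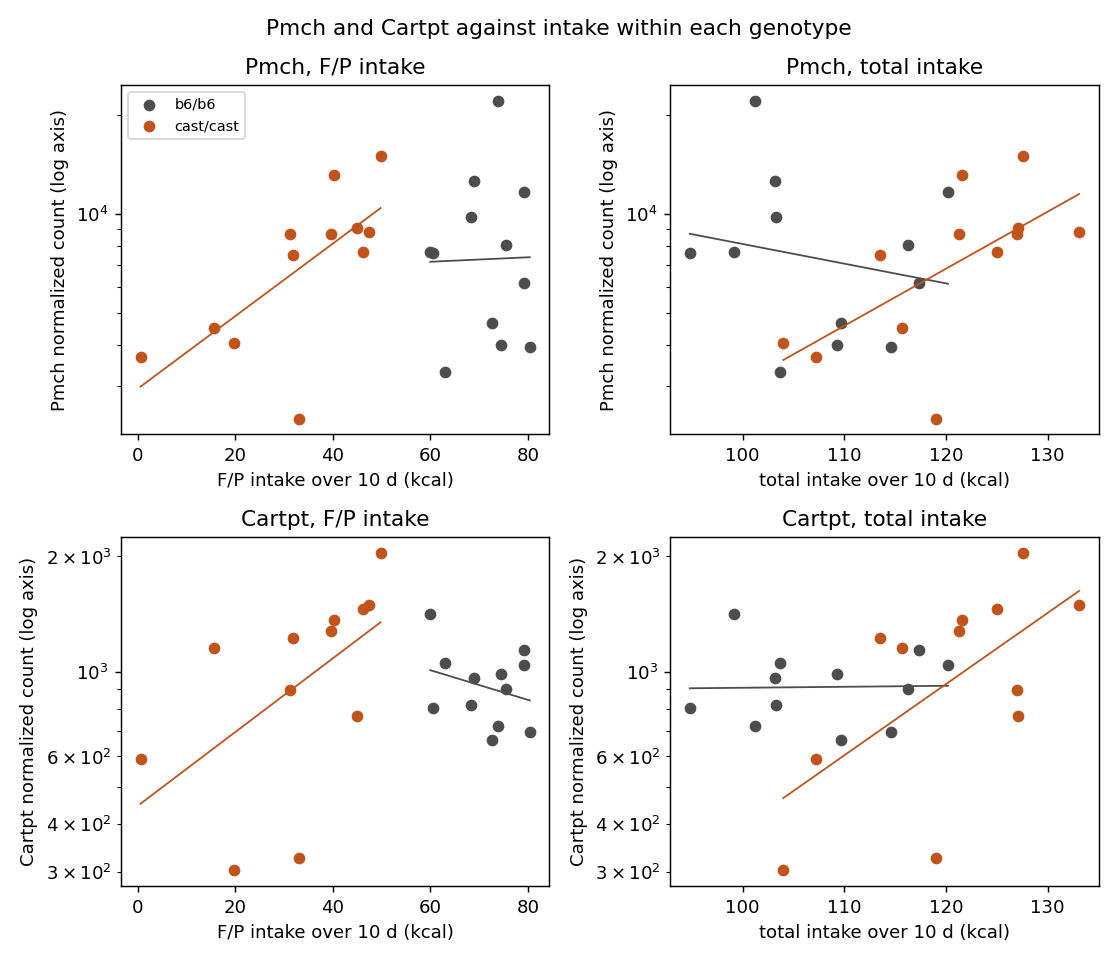
Normalized count (log axis) of *Pmch* and *Cartpt* against F/P and total intake over 10 d (kcal), 1 point per mouse, *b6/b6* in gray and *cast/cast* in orange, with least-squares lines of log2(count + 1) within each genotype. In *cast/cast* mice *Pmch* is 3677 at the lowest and 15021 at the highest F/P intake, and the *b6/b6* lines are close to flat or fall.

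The labels give each mouse a study number, and its relation to the transcripts was examined after the data were seen (12 relations). *Hcrt* was lower in *b6/b6* mice at higher study numbers, with an r of -0.63 (permutation test, P = 0.0282; rho -0.69, P = 0.0156; limma P = 0.00725, adjusted P = 0.0384), and -0.50 (P = 0.144) without mice 9 and 12. Of all genes 21.4% had a limma P of at most 0.01 for study number in *b6/b6* mice, against 0.121% with *cast/cast*. *Pomc* had an r of 0.54 (P = 0.0744) in *b6/b6* and 0.53 (P = 0.0652) in *cast/cast* mice. The genotype difference of *Hcrt* was -0.65 (P = 0.448) among the 13 mice with study numbers under 200 and 1.86 (P = 0.034) among the 11 over 200, and for *Pmch* it was -0.56 and 0.36. Whether the difference itself changed with study number was not tested. With study number as a covariate the slopes of *Pmch* and *Cartpt* on total kcal in *cast/cast* mice had P of 0.00813 and 0.00175.

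Genes that act with these peptides, in lists written for this purpose, showed few differences between the genotypes. Of 11 receptors and co-receptors tested, 0 were called. The lowest P were those of *Sdc3* (log2 difference 0.37, P = 0.0159), a co-factor of melanocortin signalling, *Atrn* (-0.47, P = 0.0270), which acts with the agouti protein, and the neuropeptide Y receptor *Npy1r* (-0.55, P = 0.0618). Of 13 genes of peptide processing and secretory granules, 0 were called (lowest P for *Chgb*, 0.31, P = 0.0599, *Prcp*, -1.07, P = 0.0615, and *Pam*, -0.34, P = 0.305). Of 9 genes of leptin, insulin, ghrelin and serotonin signalling, 0 were called (lowest P for *Foxo1*, -0.27, P = 0.138, *Ghsr*, 0.28, P = 0.324, and *Lepr*, 0.30, P = 0.363). Of 15 further genes of arcuate and lateral hypothalamic neurons, only *Tacr3*, the neurokinin 3 receptor, was called, with a mean of 17.6 normalized counts in *b6/b6* mice against 6.75 with *cast/cast* (log2 difference -1.44 ± 0.51, P = 0.00849, adjusted P = 0.472). Of 13 genes of other hypothalamic regions 0 were called, and *Tac1* had the lowest P (-0.56, P = 0.0187), followed by *Crh* (0.62, P = 0.184) and *Avp* (-0.47, P = 0.247). The median log2 differences of these 5 lists lay between -0.19 and 0.06, against -0.02 over all genes.

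Of the markers of neighbouring tissues and other cells 1 was called. This was *Tcf7l2*, a marker of the thalamus (mean 205.7 against 105.0, lower in *cast/cast*, log2 difference -0.84 ± 0.29, P = 0.0071, adjusted P = 0.449). Also of the thalamus list, *Ntng1* had a log2 difference of -0.53 (P = 0.018), whereas *Prkcd* (0.04, P = 0.858) and *Lef1* (0.08, P = 0.849) were not lower. *Slc17a6*, which is expressed in many neurons, made up most of the sum of the 5 thalamus markers (means of 5387 and 5652 in *b6/b6* and *cast/cast* mice, medians of the sum 5731 and 5791). The sum could therefore not show a change of the other genes, which differed in direction. None of the markers of pituitary, choroid plexus, cortex and striatum, blood, neurons, astrocytes, oligodendrocytes, microglia or endothelium was called. Among them *Alas2* (log2 difference -0.92), *Gad1* (-0.53), *Aif1* (0.56) and *Tmem119* (-0.78) had a P under 0.05. The microglia markers *Aif1* and *Tmem119* thus went in opposite directions. The blood markers *Hba-a1* (-0.91, limma P = 0.0616) and *Hba-a2* (-0.92, P = 0.0602) had the same direction as *Alas2*. The part of these differences in the neuropeptide values was not tested.

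The genes whose levels were most like each transcript across 24 mice, with genotype means removed and a mean of at least 20, give its company in these libraries. For *Cartpt* they were *Gsx1* (r = 0.91), a homeobox gene, *Rln1* (0.87), which encodes relaxin, and *2010107H07Rik* (0.86). For *Pomc* they were *LOC433944* (0.83), *Crabp1* (0.80), a retinoic acid binding protein, and *P4ha3* (0.79). For *Npy* they were *Mettl23* (0.86), *Psmb3* (0.84) and *Gstm7* (0.84). *Agrp* had the weakest company, with *H2-Q1* (0.68), *Lrrtm1* (0.66) and *Fhl1* (0.65). For *Hcrt* they were *Pmch* (0.83), *Ciz1* (0.82) and *Pofut2* (0.77), and for *Pmch* *Ruvbl2* (0.85), *Hcrt* (0.83) and *Ddx39b* (0.81).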

How the data were processed

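Hypothalamus RNA of 12 *b6/b6* and 12 *cast/cast* mice was made into SOLiD SAGE libraries. The signal values deposited by the authors are tag hits per gene, aligned to RefSeq mRNA and GRCm38 (mm10 in the submitters' processing notes) and scaled with DESeq size factors. Columns holding the authors' own comparisons (P, adjusted P, fold change) were not used. Repeated rows of a gene were used once. Within each library 100% of values were multiples of a step (tolerance 0.02), so whole tag hits were recovered and the count tests ran on these. Over 276 library pairs the chi-square of the counts was at least 16.6 per degree of freedom, so no library was taken as a repeat. Floors cover counting error only, as tags carry no molecular identifiers.

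All 13998 genes passed a minimum mean of 5 and were tested with limma 3.58.1 (lmFit, eBayes with trend) on log2(normalized count + 1), which understates changes of low genes, with Benjamini-Hochberg adjustment over all genes. A call needed P no higher than 0.01 and a 1.5-fold ratio of means. F/P kcal is total minus C/P kcal from the labels. Slopes were fitted within each genotype over all genes, and correlations used two-sided permutation tests (100000 resamples) with genotype means removed for pairs. The difference of r between the genotypes was tested on values standardized within genotype, with genotype labels permuted. As alternatives, pseudocounts of 0.5 and 5, a mean of at least 20, rescaling to the same total, edgeR 4.0.16, DESeq2 1.42.0, study number, and leaving out mice were tried. In simulated data of the same size limma called 78% of genes changed by 1 and 98% of those changed by 2 on the log2 scale, and 0.717% of unchanged genes, for *cast/cast* against *b6/b6*. Slopes of 0.1 per kcal on total intake in *cast/cast* mice were called for 84.5%, and 1.03% of flat ones. The changed genes were picked at random, so these rates do not hold for *Agrp*, *Npy* and *Hcrt*, which varied more among mice. Each gene was drawn independently, so variation that genes share across libraries was left out. The study's methods used DESeq, while limma was used here because the deposited values are normalized.

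Named genes were the 6 members, the called genes of each list or up to 3 with the lowest P, and the 3 genes most correlated with each member. Members and lists were chosen with earlier results of these data known. *Mc5r*, *Ppyr1*, *Bsx*, *Pdyn*, *Sst* and *Rax* were not analysed here. Software was R 4.3.3 and Python 3.11.15 (scipy 1.17.1, pandas 2.3.3, numpy 2.4.6, matplotlib 3.10.9).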

Additional observations from a re-analysis of the deposited data

Results flagged for a closer look

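The correlation of *Agrp* with *Npy* and that of *Agrp* with *Pmch* were singled out because they differed between *b6/b6* and *cast/cast* mice in a permutation test of the difference itself. For *Agrp* and *Npy* the difference of r, *cast/cast* minus *b6/b6*, was 0.95 (permutation test, P = 0.00357, 1 of 15 pairs examined, P not adjusted over them). It ranged from 0.558 to 1.18 with each mouse left out, with a P above 0.01 without *cast/cast* mouse 6 (P = 0.0114) or *b6/b6* mouse 2 (P = 0.0114), and was 0.553 (P = 0.118) without the 4 libraries that stood apart.

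For *Agrp* and *Pmch* the difference of r was 1.16 (permutation test, P = 0.00777). It ranged from 0.986 to 1.57 with each mouse left out, was highest without *cast/cast* mouse 9, and had a P above 0.01 for 9 of the 24 mice left out, with 0.0249 without *b6/b6* mouse 12 as the highest. Without the 4 libraries that stood apart it was 1.03 (P = 0.0106).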

How the results depend on the processing

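No neuropeptide gene was called between the genotypes in any of the 38 alternatives to the reported comparison, including stricter and looser thresholds, other pseudocounts and filters, edgeR, DESeq2 and each mouse left out, and the lowest P of any of them was 0.0146. Most directions were not stable, and where a value below changed sign or crossed the threshold of 0.01 the cause was not tested. The spread among mice, and for *Npy* the low count, limit the precision. Leaving out a mouse, intake slopes, pairs, the libraries that stood apart, study number and principal components were in part examined after the data were seen. No paired analysis was possible because the labels give no replicate number that mice of both genotypes share.

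The genotype difference (log2) changed sign for *Pomc* with edgeR (-0.0488) and DESeq2 (-0.0504), for *Cartpt* after rescaling to the same total (-0.0562), for *Agrp* (-0.0934), *Cartpt* (-0.18) and *Hcrt* (-0.65) with study numbers under 200, and for *Npy* (0.27) and *Pmch* (0.36) with study numbers over 200. Without *b6/b6* mice 6 and 12 it was 0.30 for *Npy*, -0.13 for *Pomc*, -0.0143 for *Cartpt* and 0.12 for *Pmch*. Without the 4 libraries that stood apart it was 0.53 for *Npy*, -0.0305 for *Pomc* and 0.34 for *Pmch*. With each mouse left out it ranged from -0.0325 to 0.68 for *Agrp*, from -0.0675 to 0.18 for *Cartpt*, from -0.19 to 0.0591 for *Pmch* and from -0.0578 to 0.35 for *Pomc*.

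Slopes on intake are in log2 units per kcal. For *cast/cast* mice the slope of *Pmch* on total kcal passed a P of 0.01 with a pseudocount of 5 (0.0576), after rescaling (0.0622), with study number as a covariate (0.0594) and without mice 4 and 6 (0.0555), and ranged from 0.0504 to 0.0659 with each mouse left out. The r of *Pmch* with total kcal was 0.477 (permutation test, P = 0.164) without the 2 mice farthest from the median intake. Its slope on F/P kcal was 0.0521 (P = 0.0217) without the 2 mice farthest from the median intake. That slope ranged from 0.0323 to 0.0452 with each mouse left out, with P above 0.01 without mouse 4, 5 or 12. Its slope on C/P kcal was -0.0500 (P = 0.00136) without mice 4 and 6. The slope of *Cartpt* passed 0.01 with study number as a covariate on total (0.0655) and F/P kcal (0.0366), and on F/P kcal without the 2 mice farthest from the median (0.0758), and on total kcal it ranged from 0.0418 to 0.0691. That of *Hcrt* passed without mice 4 and 6 on C/P (-0.0751) and F/P kcal (0.0495), where it ranged from 0.0333 to 0.0826. Without the 2 mice farthest from the median C/P intake the slopes of *Agrp* (-0.390, P = 0.000172), *Npy* (-0.192) and *Pomc* (-0.158) on C/P kcal passed. Of the mice that remained, mouse 9 ate the most C/P kcal (95.8) and had the lowest *Agrp*, *Npy* and *Pomc*. With mouse 9 alone left out these slopes were -0.0348 (limma P = 0.421), -0.0561 (P = 0.164) and 0.0150 (P = 0.466). *Npy* ranged from -0.120 to -0.0560 on C/P and from 0.0402 to 0.0684 on F/P kcal, *Agrp* from -0.0164 to 0.0789 on total kcal, and *Pomc* from -0.0267 to 0.0322 on total and from -0.0454 to 0.0150 on C/P kcal. *Pomc* on total kcal was also -0.0319 without the 2 mice farthest from the median and -0.0267 without mice 4 and 6.

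For *b6/b6* mice the slope of *Npy* on C/P kcal passed 0.01 with edgeR (-0.300) and ranged from -0.267 to -0.137 with each mouse left out. The other *b6/b6* slopes that changed sign were not called. On total kcal these were *Pomc* with edgeR (0.00199), *Cartpt* after rescaling (-0.00374), *Npy* (0.00369), *Hcrt* (0.0687) and *Pmch* (0.00507) with study number as a covariate, *Agrp* (0.0264), *Pomc* (0.0173) and *Cartpt* (-0.0105) without the 2 mice farthest from the median, and *Npy* (0.0108), *Cartpt* (-0.00445), *Hcrt* (0.0226) and *Pmch* (0.000568) without mice 6 and 12. On C/P kcal they were *Pomc* (-0.0370) with study number as a covariate, *Pomc* (-0.0523) and *Hcrt* (0.0396) without the 2 farthest, and *Agrp* (-0.0101), *Pomc* (-0.181), *Hcrt* (0.0588) and *Pmch* (0.0219) without mice 6 and 12. On F/P kcal they were *Npy* (-0.0245) and *Pomc* (0.000454) with edgeR, *Npy* (-0.0852) without the 2 farthest, and *Pmch* (-0.00233) without mice 6 and 12. With each mouse left out the slope on total kcal ranged from -0.0432 to 0.0185 for *Hcrt*, from -0.0197 to 0.0184 for *Agrp*, from -0.0319 to 0.0387 for *Pomc* and from -0.00456 to 0.0103 for *Cartpt*. On C/P kcal it ranged from -0.0216 to 0.103 for *Agrp*, from -0.144 to 0.101 for *Pomc*, from -0.226 to 0.0426 for *Hcrt* and from -0.129 to 0.00254 for *Pmch*. On F/P kcal it ranged from -0.0460 to 0.0126 for *Pomc*, from -0.0251 to 0.0637 for *Hcrt*, from -0.0184 to 0.0210 for *Pmch*, from -0.0281 to 0.0325 for *Npy* and from -0.0214 to 0.00123 for *Cartpt*. Spearman's rho had the opposite sign of r for *Agrp* (0.0909) on total, *Pomc* (-0.170) on C/P, and *Pomc* (0.0175), *Hcrt* (-0.0525) and *Pmch* (-0.0595) on F/P kcal. For study number it did so for *Cartpt* (0.0699), and without the 2 farthest mice r was -0.188 for *Agrp* and 0.00437 for *Cartpt*. With *cast/cast* rho passed 0.01 where r did not for *Pmch* on total (0.804) and F/P kcal (0.734), *Hcrt* on C/P kcal (-0.767) and *Cartpt* on F/P kcal (0.748).

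The correlation of *Hcrt* and *Pmch* was positive and had a P of at most 0.01 in all alternatives run over both genotypes and in each genotype alone, and P was above it in *b6/b6* mice without mice 6 and 12 (r = 0.731, P = 0.0153). *Agrp* and *Pomc* missed 0.01 with Spearman's rho (0.459), in *b6/b6* (0.578) and *cast/cast* mice alone (0.764) and without the 2 mice farthest from the median *Agrp* (0.464), and ranged from 0.370 to 0.658 with each mouse left out. *Agrp* and *Npy* had an r of -0.0623 in *b6/b6* mice alone and 0.320 without the 2 farthest, and ranged from 0.471 to 0.683, with a P above 0.01 only without *cast/cast* mouse 9. *Cartpt* and *Pmch* had 0.429 with 2 principal components, 0.409 with Spearman's rho, -0.0549 in *b6/b6* mice alone, 0.283 without the 2 farthest and 0.487 without the 4 libraries apart, and ranged from 0.389 to 0.644. *Agrp* and *Hcrt* had -0.00736 with 2 components, -0.00696 with Spearman's rho, -0.674 in *b6/b6* mice, -0.246 without the 2 farthest and -0.0914 without the 4, and ranged from -0.147 to 0.243. *Agrp* and *Pmch* had -0.0601 with 2 components, -0.845 in *b6/b6* mice, -0.156 without the 2 farthest and -0.0981 without the 4, and ranged from -0.136 to 0.156. *Npy* and *Pomc* had 0.579 with 2 components, -0.262 in *b6/b6* mice and 0.580 without the 4, and ranged from -0.110 to 0.287. *Npy* and *Cartpt* had -0.171 in *b6/b6* mice and 0.637 without the 4. *Npy* and *Pmch* passed 0.01 with Spearman's rho (0.542) and after rescaling (0.568), and ranged from 0.405 to 0.587. *Agrp* and *Cartpt* passed with Spearman's rho (0.578) and ranged from 0.337 to 0.666. *Pomc* and *Cartpt* passed with 2 components (0.546). In *b6/b6* mice alone *Pomc* passed with *Hcrt* (-0.712) and *Pmch* (-0.737), but not without mice 6 and 12 (-0.616, P = 0.0575, and -0.619, P = 0.0583). *Cartpt* and *Pmch* passed in *cast/cast* mice but not without mice 4 and 6 (0.660, P = 0.0370). In *b6/b6* mice *Cartpt* and *Hcrt* had -0.0314, and in *cast/cast* mice alone *Pomc* and *Pmch* had 0.0274.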
